A study of Mus musculus with 30 samples.

Results

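The uninjured baseline of the cervical spinal cord was described from 5 animals labelled Ctrl, chosen by that label alone out of 29 animals with values in the table and 30 in the labels. They are named here by their titles, A11-1, A11-4, A12-1, A12-2 and A12-3, and are always given in that order. All were adult mice, labelled C57BL/6 and named C57BL/6J in the study's methods, which describe those of the RNA study as female and the controls as sham-operated in place of a cortical stroke. The tissue was the intermediate layer of the cord at C5 and C6 on 1 side, trimmed by hand with blades after perfusion with Ringer solution, and no cell type was sorted. No stroke animal enters any value below.

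The intermediate laminae are the layers between the sensory dorsal horn and the motor pools of the ventral horn. They hold mostly local and propriospinal interneurons, which relay descending motor commands and limb feedback to the motoneurons. Excitatory interneurons there release glutamate and inhibitory ones release GABA, glycine or both. Cholinergic neurons are few and lie partly around the central canal, while the large cholinergic motoneurons lie further ventrally.

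RNA of each animal was sequenced as 1 library, and the deposited values are normalised read counts in CPM (counts scaled to the size of each library) printed to 1 decimal. The 5 columns summed to 777344 to 818510 CPM over 16995 listed genes, had medians of 10.6 to 11.1 CPM and held 16939 to 16963 genes above 0. The number of reads behind them is unknown, so no counting interval is given. Mitochondrial genes took 5.74% of the summed values in A11-1 and 7.75% to 8.18% in the other animals. Across genes, which are not independent replicates, the log2 values of any pair of animals correlated at r = 0.9814 to 0.9903.

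Levels of different genes are compared below only as CPM per kilobase of the gene's longest protein-coding transcript, or of its longest transcript where it has none, written CPM/kb with the SD over 5 animals. The median of all genes was 3.84 CPM/kb, and 1224 genes had a mean of at least 100 CPM. The order of genes depends on the length used. With the length of all exons together or of the median transcript, another gene was highest in 22 of the 50 gene lists and another lowest in 24. Of the genes named below as highest of their list, this holds for Snap25, Slc17a6, Slc6a5, Ntsr2, Gria4, Grin1, Grm3, Glrb, Chrm2, Calb2, Glul, Mbp, Dcn, Dusp1 and Tef. In bulk tissue, fewer cells of a type and less RNA per cell cannot be told apart.

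Among the transporters that mark neurons of a given transmitter, those of glycine and glutamate neurons were highest. Slc6a5, the glycine transporter of glycinergic terminals (GlyT2), was at 47.7 ± 4.67 CPM/kb, above 96.02% of genes. Slc17a6, the vesicular glutamate transporter VGLUT2, was at 44.8 ± 3.17 CPM/kb, within the SD of Slc6a5. Slc32a1, the vesicular transporter shared by GABA and glycine neurons, was at 31.2 ± 2.97 CPM/kb. In each of the 5 animals Slc17a6 lay above Slc32a1, by 0.52 ± 0.14 on the log2 scale, a ratio of 1.44, and Slc6a5 lay above Slc32a1 by 0.61 ± 0.20. Values of 1 sign in 5 animals cannot give an exact two-sided p below 0.0625, so these within-animal differences carry no test. The first of them rests on the transcript length used: with the length of all exons together it was 0.14, with the sign kept in 4 of 5 animals.

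The values of Slc17a6 were 179.3, 200, 171.6, 176.7 and 198.5 CPM, those of Slc32a1 73.3, 91.5, 91.6, 85.8 and 93.8 CPM and those of Slc6a5 340.6, 377.8, 290.4, 321.5 and 353.5 CPM. These transporters varied little between animals, by at most 1.17-fold, 1.28-fold and 1.30-fold between the extremes of CPM + 0.5. Slc17a8, the transporter VGLUT3, was close to the lower end of the table at 0.189 ± 0.0437 CPM/kb, above 1.61% of genes, and Slc17a7, VGLUT1, had no row and was not analysed here. The glutamine transporter Slc38a1 was at 24.9 ± 1.31 CPM/kb.

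The GABA-synthesising enzymes Gad1 and Gad2 were at 18.1 ± 3.51 and 10.2 ± 1.44 CPM/kb. Gad1 was the higher in every animal on that scale, by 0.83 ± 0.10 log2, but the order turned to −0.33 with the length of all exons together. Abat, which breaks GABA down, was higher than either at 98.95 ± 2.83 CPM/kb, as was the GABA transporter Slc6a11 at 51.3 ± 1.49 CPM/kb. Slc6a9, the glycine transporter GlyT1 found largely on astrocytes, was at 42.5 ± 2.89 CPM/kb. Gldc, of the enzyme system that cleaves glycine, was at 0.690 ± 0.108 CPM/kb.

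Cholinergic marker genes, apart from Ache, were lower and less even. Ache, acetylcholinesterase, was at 48.2 ± 3.62 CPM/kb, the choline transporter Slc5a7 at 18.8 ± 9.37, the vesicular transporter Slc18a3 at 11.8 ± 6.48 and the synthesising enzyme Chat at 8.05 ± 2.87 CPM/kb. Chat lay below Slc17a6 in all 5 animals, with a log2 ratio of −2.55 ± 0.62. Slc18a3 lies within the span of Chat on chromosome 14, so reads of the gene pair may not be fully separable. Of the monoamine list 7 of 15 genes had a row, 5 of them below the median of all genes, and their median was 2.03 CPM/kb. Maoa and Maob, which degrade monoamines, were at 8.21 ± 0.139 and 2.89 ± 0.436 CPM/kb, while the vesicular transporters Slc18a2 and Slc18a1 were at 1.87 ± 0.267 and 0.488 ± 0.155 CPM/kb.

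**Figure D1:**
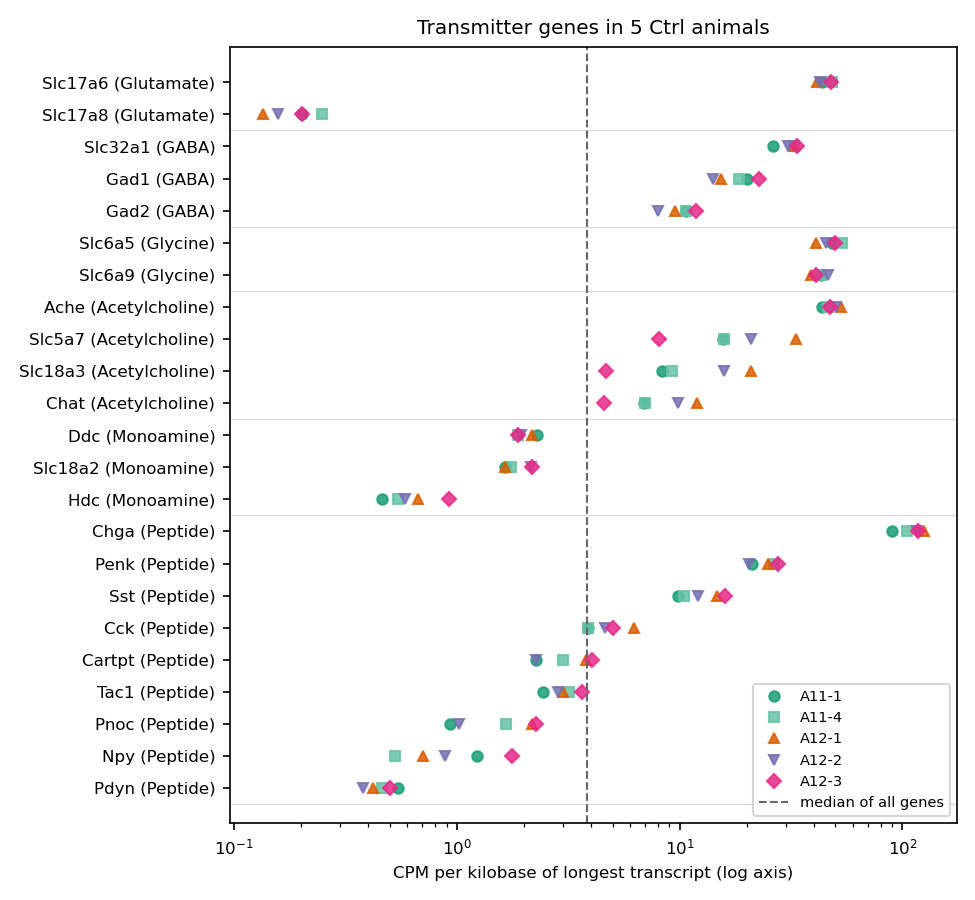
CPM/kb (log axis) of transmitter and peptide genes, with 1 symbol per Ctrl animal and a dashed line at the median of all genes. Slc6a5 and Slc17a6 lie close together above Slc32a1, Slc17a8 lies far below, and Slc5a7, Slc18a3 and Chat run in 1 order from A12-3, the lowest, to A12-1.

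Receptors for the fast transmitters followed with high glycine and AMPA receptor levels. The glycine receptor subunits Glrb and Glra1 were at 106 ± 8.93 and 79.5 ± 8.94 CPM/kb, the anchoring protein gephyrin (Gphn) at 18.8 ± 0.786, and the subunits Glra3 and Glra2 at 2.26 ± 0.367 and 1.95 ± 0.155 CPM/kb. Among AMPA receptor subunits Gria4 led at 36.9 ± 2.62 CPM/kb, ahead of Gria3 at 17.6 ± 0.487, Gria1 at 14.3 ± 1.31 and Gria2 at 13.4 ± 1.10 CPM/kb. Gria1 and Gria2 did not differ by more than their spread. The kainate subunit Grik3 was lowest of the 11, at 2.59 ± 0.349 CPM/kb.

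Grin1, the obligate NMDA receptor subunit, was at 36.7 ± 1.42 CPM/kb. Grin2a and Grin3a followed at 8.85 ± 0.955 and 8.77 ± 1.16 CPM/kb, within each other's SD, then Grin2b at 4.34 ± 0.426 and, lowest, Grin2d at 1.83 ± 0.158 CPM/kb. With the median transcript length in place of the longest, Grid1 led the AMPA, kainate and delta subunits and Grin2b the NMDA subunits. Of the metabotropic glutamate receptors Grm3, Grm5 and Grm7 were highest, at 12.8 ± 1.88, 11.5 ± 1.78 and 10.7 ± 0.804 CPM/kb, and Grm2 lowest at 0.259 ± 0.0918 CPM/kb.

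Of the GABA-A receptor subunits, 14 of 17 had a row. Gabra5 and Gabra3 were at 17.9 ± 1.48 and 17.8 ± 1.24 CPM/kb, level with each other within the SD, Gabrb2 at 14.1 ± 1.46, and Gabre lowest at 0.218 ± 0.0535 CPM/kb. The GABA-B subunits Gabbr1 and Gabbr2 were at 61.5 ± 2.00 and 15.98 ± 1.03 CPM/kb. Slc12a5, the chloride exporter KCC2 that sets inhibition by GABA and glycine in mature neurons, was at 64.2 ± 2.00 CPM/kb, and the importer Slc12a2 (NKCC1) at 30.05 ± 4.69 CPM/kb.

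Receptors of slower transmitters were mostly low. Among acetylcholine receptors, with 12 of 16 measured and a median of 0.882 CPM/kb, the muscarinic receptor Chrm2 at 16.4 ± 2.04 and the nicotinic subunits Chrna4 at 7.45 ± 1.02 and Chrnb2 at 6.66 ± 0.377 CPM/kb were the highest, and the subunit Chrnb3 at 0.0959 ± 0.0425 CPM/kb the lowest. Among 27 of 31 measured monoamine receptors the median was 1.30 CPM/kb. The serotonin receptors Htr2c and Htr7 stood above it at 12.6 ± 0.982 and 6.29 ± 0.650 CPM/kb, with the adrenergic receptor Adra1a at 7.37 ± 1.15 CPM/kb, and Adra2b was lowest at 0.239 ± 0.0837 CPM/kb.

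Of the opioid precursors, Penk, which encodes the enkephalins, was at 24.1 ± 3.14 CPM/kb, Pnoc (nociceptin) at 1.61 ± 0.628, Pdyn (dynorphin) at 0.461 ± 0.0663 and Pomc at 0.326 ± 0.109 CPM/kb. Penk was above Pdyn in all 5 animals by 5.71 ± 0.25 log2, a ratio of 52.4. That ratio was 19.0 with the median transcript length. The granule proteins Chga, Scg2 and Chgb led the other peptide genes at 111 ± 13.6, 69.9 ± 10.7 and 42.2 ± 4.76 CPM/kb, and somatostatin (Sst) was at 12.6 ± 2.66 CPM/kb. Tac1, the substance P precursor that is abundant in superficial dorsal horn, was at 3.02 ± 0.447 CPM/kb, Cck at 4.73 ± 0.983, Npy at 1.02 ± 0.490 and endothelin 3 (Edn3), the lowest, at 0.571 ± 0.114 CPM/kb.

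Peptide receptors were led by Ntsr2, a neurotensin receptor, at 39.1 ± 4.33 CPM/kb, and by the PACAP receptor Adcyap1r1 at 22.4 ± 1.96 CPM/kb, while the other neurotensin receptor, Ntsr1, was lowest at 0.194 ± 0.0913 CPM/kb. Adcyap1r1 was above Ntsr2 with all exons together, at 20.8 against 19.1 CPM/kb, and with the median transcript, at 89.4 against 58.0. The nociceptin receptor Oprl1 was at 15.1 ± 1.70 CPM/kb and the mu opioid receptor Oprm1 at 10.3 ± 1.54 CPM/kb, above Oprd1 at 3.88 ± 0.154 and Oprk1 at 1.84 ± 0.314 CPM/kb. Receptors and precursors were thus not ordered alike, since Oprl1 exceeded the other opioid receptors while its precursor Pnoc was far below Penk. The values for Oprl1 were 52.2, 49.1, 42.7, 39.7 and 43.2 CPM and those for Pnoc 2, 3.6, 4.7, 2.2 and 4.9 CPM.

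Genes that mark spinal interneuron classes were detected but mostly low. Of the 60 listed transcription factors and calcium-binding proteins 49 had a row, with a median of 1.09 CPM/kb, and 39 lay below the median of all genes. The calcium-binding proteins calretinin (Calb2) and parvalbumin (Pvalb) were far above the rest, at 66.5 ± 7.15 and 60.9 ± 16.3 CPM/kb, whereas Calb1 (calbindin) was at 2.49 ± 0.159 CPM/kb. The broadly used factors Meis2, Pbx3, Nfib and Rora followed at 10.5 ± 0.939, 8.58 ± 0.490, 7.12 ± 0.813 and 7.27 ± 0.510 CPM/kb. Markers of single ventral or dorsal classes were lower, with Pax2 (inhibitory classes) at 0.757 ± 0.178, Shox2 at 1.09 ± 0.364, En1 (V1) at 0.846 ± 0.249, Gata3 (V2b) at 0.286 ± 0.0943 and Dmrt3 (dI6) at 0.293 ± 0.0591 CPM/kb. Evx1 of V0 and Sim1 of V3 neurons were lowest of those named, at 0.202 ± 0.0754 and 0.0816 ± 0.0372 CPM/kb.

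Dorsal markers were uneven. Reln, reelin, reached 10.04 ± 1.67 CPM/kb, with 128.1, 132.5, 86.7, 130.6 and 109.5 CPM. The peptidase Ecel1 and the synaptic organiser Cbln2 were lower at 4.77 ± 0.8004 and 4.21 ± 0.236 CPM/kb. Of a list of genes of the forebrain and cerebellum, 5 of 19 had a row and 4 of those were below the median of all genes, at a median of 0.283 CPM/kb. The exception was Ppp1r1b (DARPP-32) at 8.62 ± 1.55 CPM/kb, with 12.3 to 20.9 CPM over the animals. Neurod6, of forebrain neurons, was at 0.828 ± 0.212 CPM/kb. En2, of midbrain and hindbrain, and Barhl1, which also marks dorsal spinal neurons, were at 0.283 ± 0.0663 and 0.251 ± 0.0679 CPM/kb.

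The Hox genes, whose ordered expression marks position along the cord, ended at paralogue 9 in the table. Of 39 Hox genes 25 had a row, and none of the 12 genes of paralogues 10 to 13 did. Hoxa7 was highest at 18.9 ± 1.22 CPM/kb, with 34.5, 37.7, 41.4, 38 and 38.1 CPM, followed by Hoxc8 at 16.9 ± 3.18, Hoxd8 at 11.1 ± 0.908, Hoxc6 at 10.3 ± 1.80 and Hoxa5 at 8.97 ± 1.53 CPM/kb. By paralogue the median was 6.19 CPM/kb at 5, 5.93 at 6, 11.8 at 7 and 11.1 at 8, and then 1.11 at 9. Hoxa7 and Hoxc8 exchanged the lead between animals, Hoxa7 being highest in 3 of 5. Hoxb9 at 6.33 ± 1.38 CPM/kb stood apart from Hoxa9 at 0.992 ± 0.218, Hoxd9 at 1.24 ± 0.266 and Hoxc9 at 0.598 ± 0.270 CPM/kb.

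**Figure D2:**
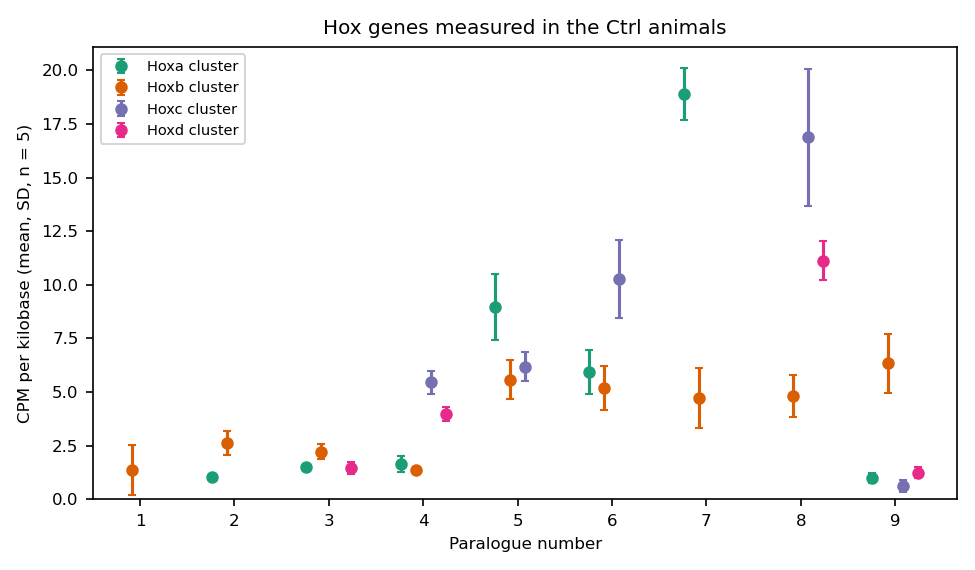
Mean level of the 25 measured Hox genes in CPM/kb (linear axis, bars are the SD, n = 5) against paralogue number, coloured by cluster. Hoxa7 at 18.9 and Hoxc8 at 16.9 CPM/kb are highest, and of paralogue 9 only Hoxb9 stays above 5 CPM/kb.

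Among cell type markers, neuronal, oligodendrocyte and astrocyte genes were highest. The 16 pan-neuronal genes had a median of 163 CPM/kb and 13 of them were in the top 10% of all genes, led by the synaptic protein Snap25 at 779.9 ± 100.3 and the neurofilaments Nefl at 585 ± 111 and Nefh at 279.5 ± 57.2 CPM/kb. Rbfox3 (NeuN) was the lowest of them at 14.3 ± 1.08 CPM/kb. The 14 oligodendrocyte genes had a median of 79.96 CPM/kb, with 13 in the top 10%, and myelin basic protein (Mbp) led at 599.7 ± 116 CPM/kb, with Mobp at 373 ± 42.6 and Opalin lowest at 8.92 ± 1.57 CPM/kb. For the 16 astrocyte genes the median was 40.2 CPM/kb, with glutamine synthetase (Glul) at 350.4 ± 17.7, Aldoc at 319.6 ± 31.3, the glutamate transporter Slc1a2 at 169.8 ± 11.7, the water channel Aqp4 at 67.5 ± 5.05 and Gfap at 68.9 ± 31.4 CPM/kb. The transcription factor Sox9 was lowest at 1.89 ± 0.207 CPM/kb. These levels do not give shares of cells.

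Other types were lower. Oligodendrocyte precursor genes had a median of 8.97 CPM/kb, with Pdgfra at 4.42 ± 0.631 and Cspg4 (NG2) at 1.56 ± 0.213 CPM/kb, and Bcas1 of newly forming oligodendrocytes at 82.8 ± 9.78 CPM/kb. The lineage factor Olig1 was at 42.6 ± 5.43, and Ptprz1 and Lhfpl3 at 13.5 ± 1.24 and 13.6 ± 0.992 CPM/kb. For microglia the median was 3.05 CPM/kb, with the complement components C1qa and C1qb at 9.96 ± 1.06 and 7.90 ± 1.56, P2ry12 at 3.94 ± 0.399 and Tmem119 at 2.40 ± 0.288 CPM/kb, and Ptprc (CD45) lowest at 0.638 ± 0.163 CPM/kb. Endothelial genes had a median of 7.52 CPM/kb, led by Bsg at 115 ± 22.03, which other cells also express, Ly6c1 at 16.9 ± 1.97 and the glucose transporter Slc2a1 at 16.4 ± 2.00 CPM/kb. They also held Cdh5 (VE-cadherin), the lowest at 1.29 ± 0.138 CPM/kb, and the tight-junction gene Cldn5 at 8.97 ± 3.56 CPM/kb. Pericyte and smooth muscle genes had 1.47 CPM/kb, led by Rgs5 at 21.9 ± 1.61, Vtn at 8.80 ± 0.874 and Pdgfrb at 1.70 ± 0.274 CPM/kb, with Kcnj8 lowest at 0.903 ± 0.149 CPM/kb.

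Markers of tissue next to the intermediate grey matter were measured as well. Motoneuron markers had a median of 4.66 CPM/kb, all 12 with a row, including the peripheral neurofilament peripherin (Prph) at 14.9 ± 8.83, Chodl of fast motoneurons at 7.91 ± 4.01 and the transcription factors Mnx1 and Isl1 at 0.722 ± 0.483 and 0.548 ± 0.215 CPM/kb. The highest of that list was Spp1 (osteopontin) at 71.4 ± 18.2 CPM/kb. Meningeal and fibroblast genes had 0.624 CPM/kb, with decorin (Dcn) at 4.63 ± 0.256, collagen Col1a2 at 3.26 ± 0.229, Igf2 at 1.19 ± 0.152 and Foxc1 at 0.417 ± 0.140 CPM/kb. Ependymal genes had 0.716 CPM/kb over 9 of 11 measured, with Foxj1, the master factor of motile cilia, at 7.66 ± 1.98, the radial spoke protein Rsph1 at 0.823 ± 0.571 and Tekt1 at 0.387 ± 0.444 CPM/kb. Of the sensory ganglion list, 5 of 11 genes had a row with a median of 0.548 CPM/kb, and for Schwann cells 4 of 8, among them Pmp22 at 16.02 ± 3.47 CPM/kb. Of the red cell list 6 of 9 genes had a row and 3 of those lay below the median of all genes, and the alpha and beta globins Hba-a2 and Hbb-bs lay above it at 4.84 and 5.57 CPM/kb.

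**Figure D3:**
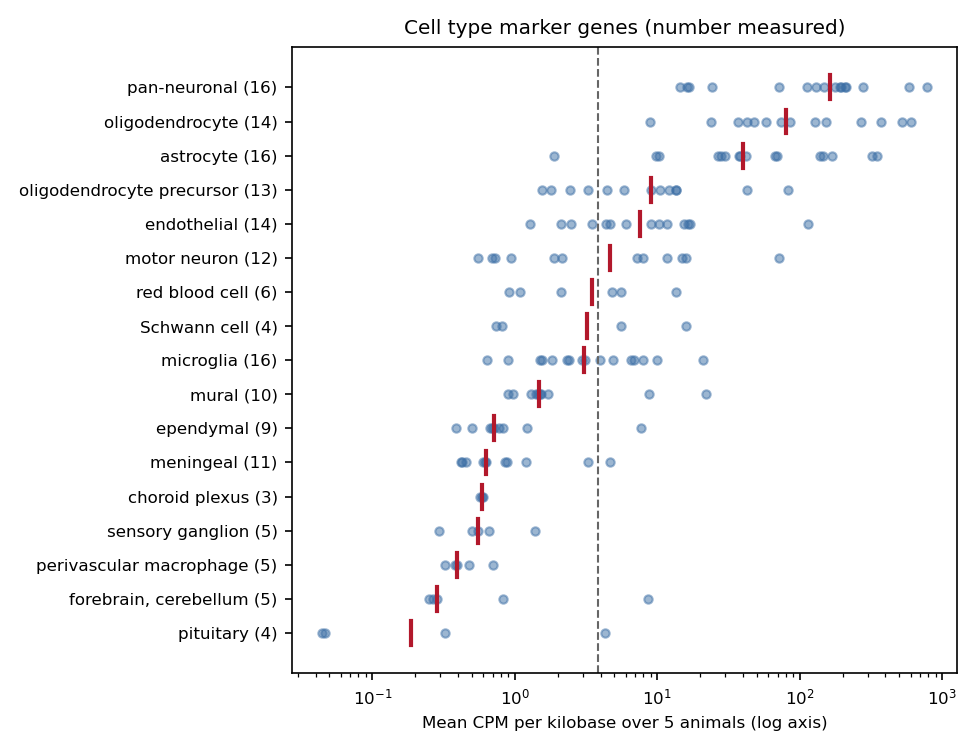
Mean CPM/kb over the 5 Ctrl animals (log axis), with 1 point per marker gene, a red bar at the median of each list and a dashed line at the median of all genes. The pan-neuronal, oligodendrocyte and astrocyte medians lie highest, and those of the perivascular macrophage, forebrain and cerebellum, and pituitary lists lowest.

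Among genes annotated as protein-coding in the nuclear genome, the highest value per length was that of Lars2, at 9839 CPM/kb. Lars2 had been placed on the list of ribosomal RNA features, and whether its reads came from Lars2 mRNA was not tested. Behind it came Snap25, the chaperone Hspa8 at 741, brain creatine kinase (Ckb) at 729, the matrix protein Sparcl1 at 648, Mbp, Nefl and, after a few others, pyruvate kinase (Pkm) at 435 CPM/kb. Some structural RNAs were higher still. The signal recognition particle RNAs Rn7s1 and Rn7s2, near-identical copies that share reads, were at 67541 and 67549.8 CPM/kb, and Rn7sk at 34079 CPM/kb. The long noncoding RNA Malat1 was at 847 CPM/kb.

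Genes of acute activity, interferon response and division were mostly low. Among immediate-early genes 19 of 22 had a row and the median was 2.08 CPM/kb, with Fos at 6.1, 8.5, 12.3, 12.3 and 12 CPM, Egr1 at 4.7, 8.8, 8.8, 6.1 and 6.3 CPM and Arc at 19.6, 18.1, 19.5, 24 and 21.4 CPM. The highest were Dusp1 and Jun at 7.90 ± 1.07 and 7.31 ± 0.945 CPM/kb and the lowest Npas4 at 0.243 ± 0.0860 CPM/kb. The extremes of CPM + 0.5 stood 1.94-fold, 1.79-fold and 1.32-fold apart for Fos, Egr1 and Arc. The interferon-stimulated genes had a median of 0.964 CPM/kb, with Ifitm3 and Ifit3 at 3.92 ± 1.25 and 2.83 ± 0.271, and Rsad2 lowest at 0.317 ± 0.187 CPM/kb. The division genes had 0.580 CPM/kb, with Pcna highest at 11.3 ± 1.18, Mcm2 at 1.44 ± 0.267 and Mki67 lowest at 0.135 ± 0.0437 CPM/kb.

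Variation between the 5 animals was tested gene by gene against the variance expected at that gene's level, on log2(CPM + 0.5), over 15310 genes with a mean of at least 1 CPM, using a limma variance trend with Benjamini-Hochberg adjustment. The median gene had an SD of 0.156 log2. Only 3 genes passed an adjusted p of 0.05, which is 0.0196% of those tested, and 870 (5.68%) had an unadjusted p below 0.05. None of the 3 was on any of the 50 lists.

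Galntl6 (mm10 chr8:57774052-58912640), of the family of polypeptide N-acetylgalactosaminyltransferases, was at 18, 21.6, 98, 131 and 16.5 CPM. A12-1 and A12-2 were high and did not overlap with the other 3 animals. The predicted gene Gm17374 (chr2:140152043-140153532) was split the same way, at 3.1, 4.2, 32, 44.4 and 2.5 CPM. Rps27rt (chr9:114982366-114982739), a copy of the ribosomal protein gene Rps27, was listed at 0, 23.2, 27.7, 29.8 and 36.1 CPM, so that A11-1 alone was at 0. Rps27 itself was at 22.2, 9.6, 13.9, 1.1 and 7.1 CPM, and the sum of both copies, which can share reads, was 22.2, 32.8, 41.6, 30.9 and 43.2 CPM. The sum spanned 1.93-fold, so the single-copy values are uncertain.

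The count of variable genes moved with the setting. It was 20 with each animal centred on its median, 0 without the variance trend, and 61 without A11-1, the library with the lowest mitochondrial share. Without A12-1, A12-3, A11-4 and A12-2 it was 10, 9, 3 and 1. Galntl6 and Gm17374 were no longer called without A12-2, and Rps27rt was not called without A11-1. Genes of the lists entered in some of these, Slc18a3, Slc5a7 and Plin4 under median centring, and Chat, Slc18a3, Slc5a7, Calca, Calcb, Chodl, Prph, Gfap, Plin4, Sgk1, Hspa1b and Hoxb1 without A11-1. With 1 mean fitted for each number before the hyphen of the titles, 49 genes were called. Those on the lists were Slc18a3, Slc5a7, Calca, Calcb, Chodl, Prph, Gfap, Plin4 and Hspa1b. Their values follow as descriptions, since none passed the adjusted test in the fit that gave the 3 genes above. For the counts of list members below at an unadjusted p below 0.05, the background is the 5.68% of all genes. The animals were also not extreme equally often, which is the background for counts of highest and lowest values. Over the 15310 genes the highest value, ties included, was in A11-1 for 24.5%, in A11-4 for 19.4%, in A12-1 for 26.4%, in A12-2 for 18.3% and in A12-3 for 16.6%. The lowest value was in A11-1 for 28.0%, in A11-4 for 16.7%, in A12-1 for 25.5%, in A12-2 for 16.5% and in A12-3 for 19.5%.

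**Figure D4:**
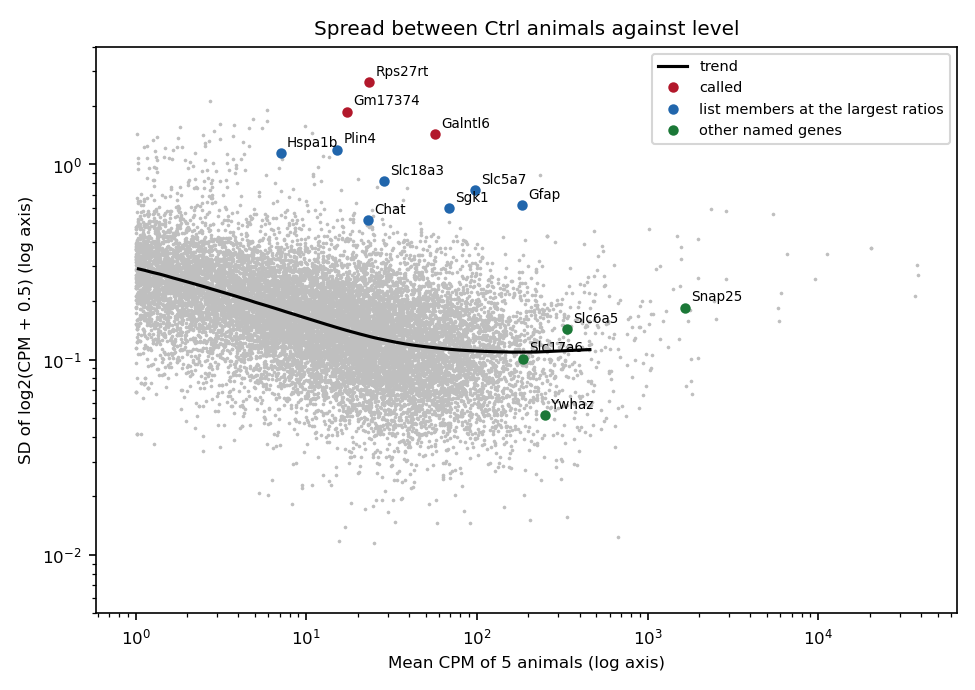
SD of log2(CPM + 0.5) over the 5 Ctrl animals (log axis) against mean CPM (log axis), with 1 grey point per gene at a mean of at least 1 CPM and the variance trend as a line through the medians of bins of genes by level. The called genes Rps27rt, Gm17374 and Galntl6 (red) and listed genes such as Slc18a3, Slc5a7 and Plin4 (blue) lie above the trend, and Ywhaz (green) below it.

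Genes of cholinergic neurons placed the animals in 1 order. Slc5a7 (chr17:54273594-54299034) was at 80.8, 82, 173.1, 108.3 and 42 CPM, Slc18a3 at 20, 22.4, 50.4, 38.1 and 11.3 CPM and Chat at 19.7, 19.9, 34.1, 28.2 and 13.1 CPM. For each of them, A12-1 was highest, A12-2 next and A12-3 lowest, with ratios of 4.08, 4.31 and 2.54 between the extremes on the CPM + 0.5 scale. Of the listed genes 3 of 4 had an unadjusted p below 0.05, beside 5.68% of all genes, and the median ratio of variance to trend was 27.9, beside 0.927 for all genes. Ache did not pass, with 95.5, 101.6, 115.8, 110.4 and 103.1 CPM.

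Much of the motoneuron list followed a similar order. Prph was at 18.4, 19, 52.8, 36 and 12.8 CPM, Chodl at 17.1, 17.2, 34, 25.1 and 6.8 CPM and Calca, the calcitonin gene-related peptide gene, at 8.3, 13.6, 28.5, 20.4 and 8.8 CPM. Calcb was at 3.4, 4.7, 15.7, 8.2 and 2.6 CPM and Mnx1 at 0.8, 1.3, 3, 2.5 and 0.5 CPM. Of the 12 genes, 10 were highest in A12-1, as were 26.4% of all genes, and 7 were lowest in A12-3, as were 19.5%. An unadjusted p below 0.05 was found for 7 of 12, beside 5.68% of all genes. Esrrg went another way, lowest in A12-1, at 61.2, 67.1, 59.2, 64.1 and 61.8 CPM. Esrrb and Lhx3 varied less than the trend, with variance ratios of 0.39 and 0.36. The mean deviation of the list from the gene means was -0.29, -0.10, 0.62, 0.31 and -0.54 log2 over the animals. How much of the tissue trimmed in each animal held motoneurons was not tested.

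Ependymal genes ran partly the other way. Foxj1 was at 18.5, 18.5, 16.8, 17.4 and 29.3 CPM and Ccdc153 at 1.7, 0.7, 0.1, 1.1 and 3 CPM, so A12-3 was highest and A12-1 lowest for both. The 3 ependymal genes that met the level filter all had an unadjusted p below 0.05, with mean deviations of 0.45, -0.18, -0.87, -0.34 and 0.94 log2, but without A12-3 this was 1 of the 2 that still met it. A search made after the values were seen gave 17 genes at least 2-fold higher in both A11-1 and A12-3 than in each of the other 3 animals, against 19 for A12-1 with A12-2 and 0 to 3 for the other 8 pairs. Among the 17 were the dyneins Dnah6 at 8.7, 2.8, 0.2, 1.1 and 11.6 CPM, Dnah12 at 5.6, 2.4, 0.3, 0.9 and 6.5 CPM and Dnah2 at 4.5, 1.7, 1.5, 1.3 and 4.6 CPM. Cfap43, Cfap44, Rsph4a, Spef2 and Ak7 were also among them, as were genes of other kinds such as Traf1, Pkd1l2 and the endocytic receptor Lrp2 at 7, 3, 1.2, 1.7 and 6.5 CPM. No list of these genes was fixed, so no theme is drawn from the 17.

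The 19 genes high in A12-1 and A12-2 lay on 12 chromosomes, 10 were protein-coding, and besides Galntl6 and Gm17374 they included Obox3 at 2.1, 3.4, 16.2, 25.3 and 2.1 CPM, Klhl31 at 1, 1.2, 6.5, 9.3 and 0.7 CPM and Dusp23 at 5.4, 5.8, 21.2, 25.6 and 5.1 CPM. A run of at least 20 A or 20 T bases was found in a transcript of 13 of the 19, beside 7.10% of 15248 genes with a transcript, and in 0 of the 17 genes high in A11-1 and A12-3. The called genes Galntl6 and Gm17374 each had such a run, of 27 T and 24 A bases. What part the runs had in the values was not tested. Of the lists, Nts (neurotensin) at 1, 1.3, 4.4, 3.4 and 1.4 CPM and Hoxb1 at 1, 1.7, 4.2, 6.4 and 0.9 CPM were among the 19, and neither has such a run.

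Most oligodendrocyte genes, Gfap and most microglial genes were highest in A12-2. Mbp was at 2707.4, 2370.7, 2720.1, 3832.2 and 2753.9 CPM, and 12 of the 14 oligodendrocyte genes were highest in A12-2 (18.3% of all genes) while 11 were lowest in A11-4 (16.7%), although 2 of 14 had an unadjusted p below 0.05. Enpp6, of newly forming oligodendrocytes, was at 21.2, 10.2, 11.9, 24.5 and 13.7 CPM. Gfap (chr11:102887336-102900912) was at 236, 130.5, 125.9, 303.3 and 116.9 CPM, so that A12-2 and A11-1 were high and the other animals lay together near the lower value. The astrocyte list had a median SD of 0.114 log2, 2 of 16 genes had an unadjusted p below 0.05, and 6 of 16 were highest in A12-2 (18.3% of all genes). Aqp4 was at 361.5, 315.4, 327.6, 375 and 327 CPM and Glul at 1010.4, 1039.8, 978.7, 948.7 and 914.3 CPM. Other lists also had members high in A12-2, as 9 of the 15 microglial and 4 of the 5 red cell genes that met the level filter were highest there. Their mean deviations in A12-2 were 0.12 and 0.48 log2. The summed CPM of the globin copies Hba-a1 and Hba-a2 was 2.5, 3.8, 5, 7.5 and 2. The part of blood or other cell types in the A12-2 values was not tested. The complement gene C3, named after its values were seen, was at 2.6, 1.5, 1.7, 9.6 and 2.3 CPM and thus highest in A12-2.

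**Figure D5:**
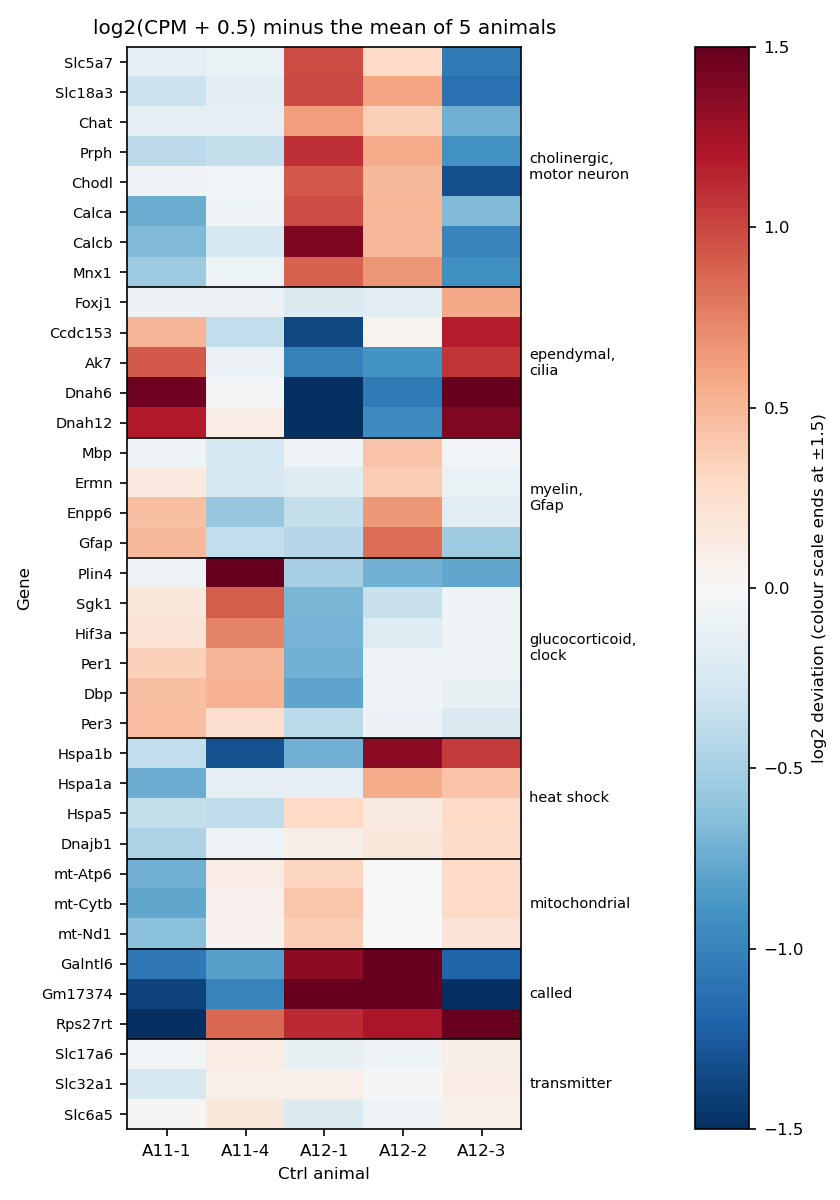
Colours give each gene's log2(CPM + 0.5) minus its mean over the 5 Ctrl animals, in columns by animal, with red above and blue below the mean and the scale ending at 1.5 either way. Slc5a7 to Mnx1 are highest in A12-1 and lowest in A12-3 or A11-1, the dynein genes Dnah6 and Dnah12 are high in A11-1 and A12-3, and Slc17a6, Slc32a1 and Slc6a5 stay pale throughout.

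Several genes known to respond to glucocorticoids were highest in A11-4. Plin4 (chr17:56100591-56109803), a lipid droplet protein, was at 10.1, 46.4, 7.4, 6.3 and 6 CPM, and the kinase Sgk1 at 71.4, 119.9, 39.4, 50.3 and 60.7 CPM. Hif3a was at 5.3, 7.9, 2.6, 3.9 and 4.3 CPM. A11-4 was highest for 8 of the 15 genes, beside 19.4% of all genes, and 7 of 15 had an unadjusted p below 0.05, or 4 of 15 without A11-4. Fkbp5, the co-chaperone of the glucocorticoid receptor, was at 15.2, 15.5, 17.9, 16.5 and 13.8 CPM and Tsc22d3 (GILZ) at 116.7, 147.9, 156.8, 142.5 and 140.2 CPM, both highest in A12-1. Per length the metallothionein Mt1 was highest of the list at 76.4 ± 21.01 CPM/kb, followed by Tsc22d3 at 71.3 ± 7.56 and the metallothionein Mt2 at 48.2 ± 13.7 CPM/kb.

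Most circadian clock genes were highest in A11-1 or A11-4 and lowest in A12-1. Per1, also on the glucocorticoid list, was at 20.4, 22.6, 9.4, 14.9 and 14.9 CPM, Per3 at 34.5, 29.7, 18.7, 23.4 and 21.3 CPM and Dbp at 23.6, 24.8, 9.7, 16.3 and 15.8 CPM. The opposing arm of the clock showed smaller differences, with Arntl (BMAL1) at 9.6, 8.7, 11.7, 9.1 and 10.3 CPM and Clock at 132.5, 123.1, 112.8, 119.1 and 115.4 CPM. Tef and Nr1d2 were the highest per length at 28.8 ± 3.93 and 23.1 ± 2.37 CPM/kb and Npas2 the lowest at 1.09 ± 0.163 CPM/kb. Of the 17 genes 7 were highest in A11-1 (24.5% of all genes) and 6 in A11-4 (19.4%), 10 were lowest in A12-1 (25.5%), and 3 of 17 had an unadjusted p below 0.05. The hour at which each animal was killed is not given in the sources used here.

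The promoters of Per1, Per3 and Sgk1 are shown because their letters hold the elements through which the clock and the glucocorticoid receptor are known to act, and their values in the animals are given above. Each is the 250 bases before a RefSeq start site on GRCm38.p6, read 5′ to 3′ on the gene's strand, at chr11:69098699-69098948 on the plus strand for Per1, 1 of its 2 start sites in the table, chr4:151044666-151044915 on the minus strand for Per3 and chr10:21993640-21993889 on the plus strand for Sgk1, which has 6 start sites in the table. Capitals mark matches on either strand to the D box TTATGNAA, the E box CACGTG and the glucocorticoid response element GAACANNNTGT.
Per1: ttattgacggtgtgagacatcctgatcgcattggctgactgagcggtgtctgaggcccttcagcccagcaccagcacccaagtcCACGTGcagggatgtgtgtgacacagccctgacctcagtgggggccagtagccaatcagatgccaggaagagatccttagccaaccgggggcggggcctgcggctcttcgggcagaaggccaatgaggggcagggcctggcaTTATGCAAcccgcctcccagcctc
Per3: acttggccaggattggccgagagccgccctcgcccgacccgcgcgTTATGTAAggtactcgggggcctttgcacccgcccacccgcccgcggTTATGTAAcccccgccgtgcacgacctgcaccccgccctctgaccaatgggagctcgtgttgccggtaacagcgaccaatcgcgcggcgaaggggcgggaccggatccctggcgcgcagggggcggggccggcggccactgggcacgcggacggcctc
Sgk1: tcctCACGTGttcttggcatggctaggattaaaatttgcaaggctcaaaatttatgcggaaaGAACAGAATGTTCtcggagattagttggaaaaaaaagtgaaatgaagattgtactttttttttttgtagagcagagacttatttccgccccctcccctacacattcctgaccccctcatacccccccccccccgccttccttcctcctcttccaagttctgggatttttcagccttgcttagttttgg
Per1 held a D box 24 to 17 bases before the start and an E box at 166 to 161, Per3 held 2 D boxes at 205 to 198 and 158 to 151, and Sgk1 held an E box at 246 to 241 and overlapping response elements on opposite strands at 188 to 176. Over 27025 genes with such a window, 3.63% held a D box, 6.86% an E box and 0.977% a response element. The other windows of Per1 and Sgk1 held no match, nor did the single window of Dbp. Of the 14 clock genes with a window, 2 held a D box and 5 an E box, and of 15 glucocorticoid genes 2 held a response element, Mt1 and Sgk1. A match describes these letters only.

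Heat shock and mitochondrial genes were lowest on average in A11-1. Hspa1b, the inducible chaperone, was at 4.1, 1.9, 3.1, 14.5 and 11.8 CPM, so A12-2 and A12-3 were high, and its sum with the near-identical copy Hspa1a was 8.6, 9.1, 10.3, 26.3 and 22.5 CPM. The abundant chaperones Hsp90aa1 and Hspa5 (BiP) were at 993.8, 1007.2, 1138.8, 979.4 and 1056.2 CPM and 141.6, 139.9, 223.9, 200.3 and 223.5 CPM. Of the heat shock list, 6 of 10 had an unadjusted p below 0.05, beside 5.68% of all genes. The mean deviation of that list was -0.35 log2 in A11-1 and nearly as low in A11-4, at -0.29 log2. The mitochondrial transcript mt-Cytb was at 571.6, 1023.7, 1307.2, 978.3 and 1200.7 CPM, and 14 of 15 mitochondrial genes were lowest in A11-1, beside 28.0% of all genes. Of the 15, 11 had an unadjusted p below 0.05 and 2 without A11-1. Pan-neuronal genes were also lowest in A11-1, for 12 of 16 beside the same 28.0%, with mean deviations of -0.20, -0.0045, 0.19, 0.0038 and 0.02 log2, and 5 of 16 passed at that level.

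Some genes were more even across animals. Ywhaz, a reference gene, stayed within 235.5 to 258.3 CPM, whereas Gapdh spanned 465.9 to 661.3 CPM and Actb 664.2 to 856.2 CPM. The glutamatergic list, with 3 genes fitted, and the microglial list had median variance ratios of 0.509 and 0.845, below the 0.927 of all genes. The GABA-A and metabotropic glutamate receptor lists lay above it at 0.962 and 1.68. Of the microglial genes 0 of 15 had an unadjusted p below 0.05, which in 15 genes cannot be told from the 5.68% of all genes. Of the same 15, 9 were highest in A12-2. Pvalb was an exception among interneuron markers, at 35.9, 55.4, 71, 58.5 and 76.9 CPM, with A11-1 lowest.

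The titles carry a number before the hyphen, 11 in 2 animals and 12 in 3, and what it stands for is not given in the sources used here. Genes were tested between these numbers with limma on the same scale, and 0 of 15310 passed an adjusted p of 0.05 in either direction (lowest adjusted p 0.106), while 2501 (16.3%) had an unadjusted p below 0.05. Without A12-3 the number that passed was 14. Without A11-1 or A11-4 it was 1 or 2, but 1 animal then stood for number 11, so the spread came from the 3 animals numbered 12 alone and the lone animal was assumed to vary like them. With 2 animals against 3, no exact test of a single gene can go below a p of 0.1.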

How the data were processed

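Intermediate-layer tissue at C5/C6 was collected from each animal, and total RNA was depleted of ribosomal RNA and sequenced with single-end reads of 125 bases. The authors quantified transcripts with SALMON on mm10, summed them per gene with Tximport, removed genes of low expression, and deposited edgeR-normalised CPM, rounded to 0.1, with edgeR 3.14.0 under R 3.4.1 per the submitters' processing notes. The deposited CPM do not sum to a fixed total and reads could not be recovered from them, so the depth is unknown. The table's own fold changes and p-values between groups, and 24 other per-sample columns, were not used.

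Genes were compared by CPM per kilobase of the longest protein-coding transcript (GENCODE M21, 16930 of 16995 symbols matched). Spread was tested with limma 3.58.1 (R 4.3.3) on log2(CPM + 0.5), as the ratio of a gene's variance over 5 animals to a robust variance trend, for means of at least 1 CPM. Label numbers were compared with limma's moderated test. Scripts were tested on simulated data. For each of 50 lists (683 genes, 544 with a row) the text gives mainly the 3 highest members and the lowest, others needed for the order of levels, the highest nuclear coding genes and the called genes. Some items are not reported here. Genes named for their spread without passing the test, and the searches over pairs of animals, were picked with the values in view. The lists were chosen with earlier results of these data known. Separate animals are the replicates. Plots were drawn with matplotlib 3.10.9.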

Additional observations from a re-analysis of the deposited data

Results flagged for a closer look

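Each named gene and each summary of an animal was checked for 1 animal lying far from the other 4, by Dixon's gap test at 0.71 of the range. Of 255 values checked 16 were marked, or 6.27%. Some of the genes had been named for their spread or after their values were seen, so this share cannot be set against a chance rate.

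A12-2 was high for the complement gene C3 at 9.6 CPM (1.5 to 2.6 in the other animals), for Mbp at 3832.2 CPM (2370.7 to 2753.9) and for the microglial gene Tmem119 at 6.5 CPM (4.9 to 5.3). A12-3 was high for the cilia genes Foxj1 at 29.3 CPM (16.8 to 18.5) and Tekt1 at 1.7 CPM (0.2 to 0.4), and for Nnat at 24.3 CPM (5.3 to 10.6). A11-4 was high for Plin4 at 46.4 CPM (6 to 10.1).

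A11-1 was low for the mitochondrial share at 5.74% (7.75% to 8.18%), for mt-Rnr2 at 28142.3 CPM (37656.3 to 40828.8), for Rbfox3 at 39.2 CPM (46.1 to 47.7) and for the reference gene Ywhaz at 235.5 CPM (251.9 to 258.3). Its log2 ratio of Penk to Pdyn was low at 5.2812 (5.7688 to 5.8935). Prl was listed at 0.2 CPM in A11-1 and at 0 in the other animals, a difference of 2 rounding steps. A12-1 was high for Rn18s-rs5 at 52929.1 CPM (30320.8 to 36051.5) and for the serotonin receptor Htr7 at 22.9 CPM (18 to 18.9), and it was low for Ptprz1 at 91.1 CPM (110.4 to 115.1).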

How the results depend on the processing

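The number of genes called variable between animals was 3. It was 16 with a pseudocount of 0.05, 11 with no filter on low values, 1 with a mean of at least 5 CPM, 7 after quantile normalization, 20 after median centring, 0 without a variance trend (870 genes had an unadjusted p below 0.05 with the trend), 1 without the robust prior and 49 with 1 mean per label number. Leaving out 1 animal gave 1 to 61 genes, the highest without A11-1. Galntl6 and Gm17374 were called in neither the fit with a mean of at least 5 CPM nor that without the robust prior. For label number 11 against 12 the count was 0, and 0 to 14 when 1 animal was left out (without A11-1 or A11-4, 1 animal against 3, the spread coming from the latter alone). Level ratios depended on transcript length. With all exons together, the median transcript and no division by length, the log2 ratio of Slc17a6 to Slc32a1 was 0.14, 1.82 and 1.09, and that of Gad1 to Gad2 −0.33, 1.21 and 0.05. With the median transcript, Slc6a5 to Slc32a1 was 1.20 (1.95 undivided), Penk to Pdyn 4.25 (4.99 undivided) and Chat to Slc17a6 −1.73. Gfap to Snap25 was −2.59 with all exons together. Of the other 57 values of main results, counts stayed equal or close to the main value. Log2 ratios among them kept their sign and moved by less than their SD over the animals. Except for length, whose change of scale sets the ratios by construction, the cause was not tested. The number of list members in the top 10% of genes, 123 of 544, moved to 110 to 128. No paired analysis was possible because a single group was described. The ratio of Slc17a6 to Slc17a7 was not run, as Slc17a7 had no row. The alternative of counting list members without each animal was chosen after seeing the data. Without counts, differences of low genes cannot be set against counting error.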

Other observations

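Lists of tissues outside the cord were also measured. Of the pituitary list 4 of 7 genes had a row. The thyrotropin subunit Tshb was at 3.6, 2.2, 1.9, 2.3 and 2.9 CPM, while growth hormone (Gh) was at 0.1, 0, 0.1, 0 and 0 CPM and prolactin (Prl) at 0.2, 0, 0, 0 and 0 CPM, so Tshb was present in every animal with the other hormones at or near 0. Choroid plexus genes Kcnj13, Clic6 and Kl were at 0.598 ± 0.0898, 0.585 ± 0.0996 and 0.567 ± 0.0829 CPM/kb. Of the skeletal muscle list only Pvalb, which interneurons also express, had a row. Perivascular macrophage genes were low, with Ms4a7 at 0.698 ± 0.242, F13a1 at 0.481 ± 0.135, Mrc1 at 0.395 ± 0.0760 and Cd163 at 0.324 ± 0.134 CPM/kb.

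Of the Schwann cell list 4 of 8 genes had a row and 2 of those lay below the median of all genes, Ncmap and Foxd3 at 0.810 ± 0.198 and 0.740 ± 0.0561 CPM/kb, and Cdh19 lay above it with 26.4, 25.6, 19.4, 21.3 and 16.9 CPM. All 5 measured genes of sensory ganglia lay below it, and of these the sodium channel Scn9a and P2rx3 were at 1.39 ± 0.206 and 0.662 ± 0.141 CPM/kb. Of the red cell genes Bpgm was at 13.5 ± 1.60 and Alas2 at 0.913 ± 0.0560 CPM/kb. Of the sex-linked list 3 of 6 genes had a row. The X-inactivation RNA Xist was at 130.9, 118.6, 91.1, 131.3 and 137 CPM. The Y-linked genes Kdm5d and Uty were above 0 in all 5 animals described as female, at 8.2, 7.7, 5.6, 6 and 7 CPM and 4.7, 4.9, 3, 3.3 and 3.4 CPM. Both have X-linked homologues, Ddx3y and Eif2s3y had no row, and whether reads of the homologues entered these values was not tested.

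Among noncoding and organelle RNAs, mt-Rnr2 and mt-Rnr1, the mitochondrial ribosomal RNAs, were at 23147 and 6059 CPM/kb, mt-Co1 at 6172 and mt-Nd6 lowest at 159 CPM/kb. Cytoplasmic 18S RNA, listed as Rn18s-rs5, was at 20398 CPM/kb despite depletion, and Mir6240 at 28.5 CPM/kb. The long noncoding RNAs Snhg14 and Meg3 followed Malat1 at 225 and 64.3 CPM/kb, with Pantr1 at 2.20 CPM/kb, and the telomerase RNA Terc was at 5.53 CPM/kb. Among genes singled out after their values were seen, the imprinted gene Nnat was at 10.6, 7.5, 5.3, 8 and 24.3 CPM, highest in A12-3, and the vitamin D receptor Vdr was at 2.9, 3.2, 4.3, 3.3 and 1 CPM, lowest in A12-3.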
